A study of Mus musculus with 6 samples.

Results

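The 52 genes described here encode lectin-like, Siglec, Cd300 and paired immune receptors and were taken from the array by symbol: those starting with Clec, Siglec, Cd300, Trem, Lilr, Pira or Pirb, plus Cd33, Pilra, Pilrb1 and Sirpa. A gene was kept if its probe set had this symbol alone and a mean log2 level of at least 4.72 over all arrays. The array held 62 such genes, 10 of them under this level, and 13965 genes of any kind were above it. Clec3b (4.72) and Clec9a (4.80) lay just inside the threshold, and Siglech (4.71) and Clec4g (4.66) just outside. The other genes below it were Clec2j, Clec4b1, Clec4a4, Clec2m, Clec14a, Clec1a, Clec2g and Clec2e. Each of the 52 genes had 1 probe set. A further 4 probe sets carried several symbols of these families and were not used. By textbook function 13 of the 52 genes were classed as inhibitory, 21 as activating and 18 as other, which holds ligands, uptake lectins, secreted proteins and genes without a settled sign.

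Myeloid cells carry families of paired surface receptors whose genes lie in clusters. Inhibitory members hold tyrosine motifs in their tails that recruit the phosphatase Ptpn6 and its relatives. Many activating members, though not all, have short tails and signal through the adaptors Tyrobp or Fcer1g to the kinase Syk. The families include C-type lectin-like receptors (Clec), sialic acid-binding Siglecs, the Cd300 lipid sensors, the triggering receptors (Trem), the Lilr and Pir receptors of MHC class I, the Pilr pair and Sirpa, which reads the "do not eat" signal Cd47. They set the threshold at which neutrophils, monocytes and macrophages respond to microbes, dead cells and crystals.

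The cells came from spleens of B6D2F1/J mice that had been lethally irradiated and given B6 bone marrow freed of T cells, 10 days earlier. Grafts were made with or without B6 spleen cells, and the labels do not say for which mice. The PBS group (3 mice) received PBS and the rapamycin group (3 mice) received 1.5 mg/kg rapamycin, an inhibitor of the kinase mTOR, in both cases by injection into the peritoneum every second day. Cells were taken on CD11b magnetic beads, named myeloid-derived suppressor cells by the labels, and each mouse gave 1 array. CD11b is also found on neutrophils, monocytes, macrophages and some NK cells, and donor and host cells were not separated. In such bulk RNA, fewer cells of a type and less RNA per cell cannot be told apart.

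The 8 markers listed for the sort were all above the brightness threshold, with the CD11b gene Itgam at 12.39 ± 0.08 with PBS and 12.27 ± 0.04 with rapamycin (log2, mean ± SD, n = 3 each), and none was called by limma (1 had an unadjusted p under 0.05). The 3 measured B cell markers were all under the threshold, as were 3 of 4 eosinophil markers, 3 of 4 NK cell markers and 2 of 4 platelet markers. T cell markers were present at low level and were called lower with rapamycin for 2 of the 4 tested (50%, all genes 11.3%). Of these, Cd3g stood at 5.43 ± 0.15 with PBS and 5.04 ± 0.09 with rapamycin. The summed linear level of the T cell list was 220.8 to 237.1 with PBS and 178.4 to 204.9 with rapamycin. For basophils and mast cells it was 171.5 to 203.5 and 116.2 to 165.9 (0 of 2 tested markers called, 2 at an unadjusted p under 0.05). For red pulp macrophages it was 1491 to 1795 and 1306 to 1441. Of these 4 tested markers the brightest, the iron exporter Slc40a1, was called lower (9.97 ± 0.03 to 9.59 ± 0.06). The changes were negative for 2 of the 4 and positive for 2 (Spic 0.30 and Cd5l 0.05). Plasmacytoid dendritic cell markers summed to 496 to 552.7 with PBS and 452.5 to 470.4 with rapamycin. Of 3 tested, Bst2, the brightest, was called lower (8.86 ± 0.08 to 8.61 ± 0.03). The others, Ly6d and Pacsin1, changed by 0.10 and 0.15. The erythroid sum was higher, at 122.7 to 135.5 and 141.5 to 171 (0 of 3 tested called by limma, 2 at an unadjusted p under 0.05). Alas2 and Car2 changed by 0.35 and 0.41, and Epor by -0.11. The part of these shifts in the receptors' values was not tested.

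Rapamycin was set against PBS to see which of these receptors differed under mTOR inhibition. Of the 52 genes, 5 rose with rapamycin (Clec2d, Trem1, Cd300c2, Cd300lf and Cd33) and Cd300e fell, at limma's adjusted p under 0.05. That is 11.5% of them, against 11.3% of all 13965 genes, so the share of calls did not set these receptors apart. By direction, 5 of 52 were called higher, where the figure for all genes was 4.42%, and 1 of 52 lower, where it was 6.92%. The changes were small, from a log2 change of -0.49 for Cd300e to 0.59 for Clec2d among those called. The 3 arrays of one group lay entirely above the 3 of the other for 17 receptors (32.7%), close to the 32% of all genes. They lay above PBS with rapamycin for 13 (25%, all genes 12.6%) and below for 4 (7.69%, all genes 19.4%). The change was positive for 38 of 52 receptors, with a median of 0.07, while 44.4% of all genes had a positive change and their median was -0.02. Clec9a and Clec3b count among the 38, and Clec9a also among the 13. Their PBS means (4.53 and 4.69) lay under the brightness threshold, which they passed through their rapamycin values, so their direction was favoured by the filter.

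The counts of receptors called moved with the scaling and with single arrays. They were 6 higher and 3 lower when quantile normalization was repeated (all genes 14% called). With array medians aligned over all probe sets they were 5 and 2 (13.5%). With medians aligned over the genes tested they were 11 and 1 (11.3%), the 11 including Clec9a. Among all genes the last setting gave 875 higher and 707 lower calls, against 617 and 967 as deposited. After repeated quantile normalization the change was positive for 34 of 52 receptors, with a median of 0.03 (all genes -0.04). With any 1 array left out, calls over all genes fell too. Without PBS replicate 2 limma called 0 receptors (15 had an unadjusted p under 0.05), where 0.809% of all genes were called. Without PBS replicate 3 it also called 0 (18), where 2.91% of all genes were called. Dropping rapamycin replicate 1 or 2 each left 1 call (Cd300lf), with 2.64% and 5.1% of all genes called. Dropping PBS replicate 1 gave 5 calls (all genes 5.01%), with Cd300c2, Cd300lf and Cd300e still called and Clec4a1 and Clec4n added. Dropping rapamycin replicate 3 gave 8 (all genes 9.57%), with Clec9a, Pilra, Pirb and Siglece added and Cd33 and Cd300e lost.

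**Figure D1:**
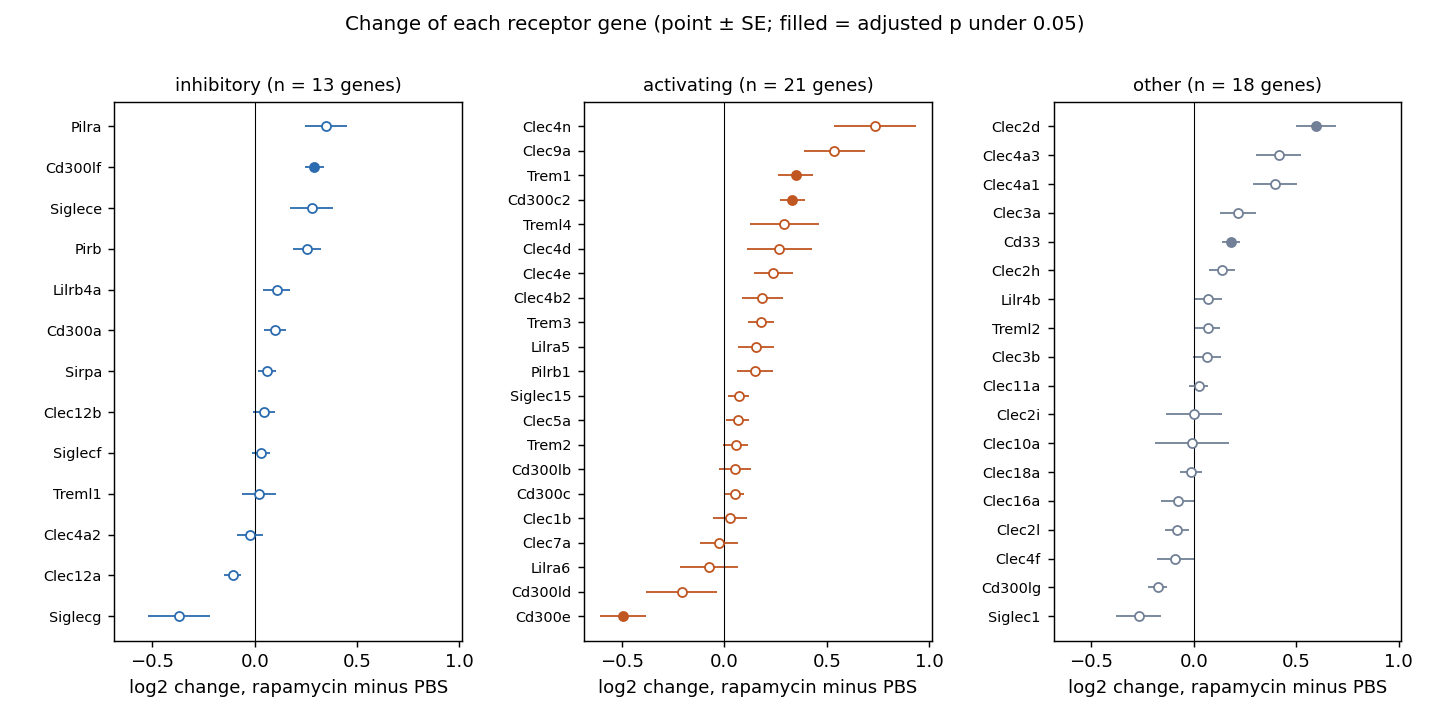
Log2 change (rapamycin minus PBS, 3 mice each) of the 52 receptor genes, in panels for inhibitory, activating and other genes; bars are limma's standard errors and filled points have an adjusted p under 0.05. Most points lie right of 0, and only 6 are filled, with Cd300e the lowest at -0.49.

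Of the 8 Cd300 genes 3 were called (37.5%, all genes 11.3%), which made up 3 of the 6 calls. These receptors bind lipids such as phosphatidylserine and ceramide that are exposed on dying cells, and their genes form a cluster in which inhibitory and activating members lie side by side. The sequences of the 250 bases before the start of Cd300c2, Cd300e and Cd300lf are shown because these neighbours moved in different directions, with that of Clec2d, which had the largest called change. They are RefSeq's (GRCm38.p6), at chr11:115001881-115002130 on the minus strand for Cd300c2, chr11:115062040-115062289 (minus) for Cd300e, chr11:115133993-115134242 (minus) for Cd300lf and chr6:129180365-129180614 (plus) for Clec2d. Capitals mark the core GGAAGT, on either strand, of the ETS family, to which the myeloid factor PU.1 belongs.
Cd300c2: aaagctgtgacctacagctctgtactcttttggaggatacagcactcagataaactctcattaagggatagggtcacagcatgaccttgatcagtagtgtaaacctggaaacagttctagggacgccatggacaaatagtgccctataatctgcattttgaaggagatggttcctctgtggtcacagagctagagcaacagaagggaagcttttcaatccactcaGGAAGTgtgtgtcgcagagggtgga
Cd300e: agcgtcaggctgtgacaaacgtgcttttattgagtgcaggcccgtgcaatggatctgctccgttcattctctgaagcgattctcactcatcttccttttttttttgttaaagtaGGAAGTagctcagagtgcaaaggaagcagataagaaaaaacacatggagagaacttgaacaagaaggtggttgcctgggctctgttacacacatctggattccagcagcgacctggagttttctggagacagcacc
Cd300lf: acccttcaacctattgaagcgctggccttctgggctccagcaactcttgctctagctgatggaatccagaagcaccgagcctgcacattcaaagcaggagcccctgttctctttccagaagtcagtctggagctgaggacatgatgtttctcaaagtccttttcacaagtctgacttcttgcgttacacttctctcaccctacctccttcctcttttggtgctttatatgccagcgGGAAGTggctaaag
Clec2d: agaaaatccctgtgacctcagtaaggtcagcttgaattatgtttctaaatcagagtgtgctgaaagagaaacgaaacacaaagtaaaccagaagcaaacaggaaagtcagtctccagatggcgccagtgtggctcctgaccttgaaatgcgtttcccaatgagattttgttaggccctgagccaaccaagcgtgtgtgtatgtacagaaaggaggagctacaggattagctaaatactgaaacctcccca
Each of the 3 Cd300 windows held 1 match, whichever way the gene moved, and the Clec2d window held 0. RefSeq windows were found for 41 of the 52 genes, and 15 of these held GGAAGT (36.6%), against 20% of 27018 promoters of the same length. It was present for 5 of the 6 called genes. The AP-1 letters TGANTCA were in 4 of the 41 windows (9.76%, all promoters 6.87%), the C/EBP letters TTGCNNAA in 8 (19.5%, all 9.56%) and the E-box CACGTG in 1 (2.44%, all 6.05%). All were searched on both strands, and none of these last 3 motifs occurred in the windows of the 6 called genes. A match is a run of letters and was not tested as a binding site.

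Cd300lf, an inhibitory receptor of neutrophils and macrophages, read 10.66, 10.67 and 10.64 in the PBS arrays and 10.88, 11.001 and 10.96 in the rapamycin arrays (log2). The PBS values were almost the same and every rapamycin value was above them. It rose by 0.29 ± 0.05 (SE), or 1.22-fold, with limma's adjusted p of 0.0139. Of the 6 called genes it kept its call most often when arrays were left out, in 4 of 6 fits, with an adjusted p of 0.0631 without PBS replicate 2 and 0.0561 without PBS replicate 3.

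Cd300c2, an activating member of the cluster, read 7.86, 7.67 and 7.71 with PBS and 8.05, 8.13 and 8.05 with rapamycin. The groups did not overlap, and PBS replicate 1 was the PBS array nearest to them. The gene rose by 0.33 ± 0.06 (SE; limma adjusted p 0.0193). It was called in 2 of 6 fits with an array left out, which dropped PBS replicate 1 (0.0296) or rapamycin replicate 3 (0.0397), and the others gave 0.0606 to 0.0799.

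Cd300e, an activating receptor of monocytes, highest in the nonclassical, patrolling subset, moved the other way. It read 5.99, 5.52 and 5.62 with PBS and 5.23, 5.21 and 5.21 with rapamycin. All 3 rapamycin arrays lay at nearly the same low value, and PBS replicate 1 was the highest of all. The change was -0.49 ± 0.11 (SE; limma adjusted p 0.0370), from 5.71 ± 0.25 to 5.22 ± 0.0090 (mean ± SD, n = 3 each). These levels are dim: its mean over all arrays, 5.46, lies below 5.71, the 50th percentile over probe sets with 1 symbol. The call held only without PBS replicate 1 (change -0.35, adjusted p 0.0322) among the fits with an array left out, and without the brightness filter its adjusted p was 0.0554. Of 7 tested markers of nonclassical monocytes 1 was called (14.3%, all genes 11.3%): Ace, the angiotensin-converting enzyme, fell (6.26 ± 0.25 to 5.69 ± 0.12). The change was negative for 6 of the 7, and 4 had an unadjusted p under 0.05 (57.1%, all genes 28.2%). The rapamycin arrays lay below PBS for 3 (42.9%, all genes 19.4%), with Itgal (change -0.30, limma adjusted p 0.0510) and Spn (-0.12, 0.163) among them. The 6 not called also held Nr4a1, the factor this subset depends on (change -0.03), and Pou2f2. The rapamycin arrays of Pou2f2 lay above PBS (change 0.23, limma adjusted p 0.0694). The summed linear level of the 8 nonclassical monocyte genes was 2153 to 2230 with PBS and 1829 to 2017 with rapamycin. Itgal, the brightest of the 8 (10.24 ± 0.03 with PBS and 9.94 ± 0.15 with rapamycin), weighs most in this sum. Of 4 tested classical monocyte markers 1 was called (25%, all genes 11.3%): Ccr2 fell from 10.07 ± 0.05 to 9.73 ± 0.16. F13a1 changed by -0.50 (limma adjusted p 0.0638), Vcan by -0.11 and Chil3, the brightest, by 0.03. The summed level of this list was 14020 to 14390 with PBS and 13780 to 14190 with rapamycin, which overlap. The part of these values in the change of Cd300e was not tested, and both marker lists were chosen after values were seen.

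The other Cd300 genes did not pass the test. The inhibitory Cd300a changed by 0.10 ± 0.05, and the activating Cd300lb and Cd300c by 0.05 ± 0.08 and 0.05 ± 0.05 (SE). Cd300ld, another activating member, ranged from 9.05 in rapamycin replicate 3 to 9.82 in rapamycin replicate 2, wider than the PBS range of 9.59 to 9.78. Cd300lg, an adhesion receptor of endothelium that lies away from the cluster, read 6.53, 6.55 and 6.61 with PBS and 6.35, 6.37 and 6.43 with rapamycin. Its groups did not overlap, with a change of -0.18 ± 0.05 that narrowly missed the threshold (limma adjusted p 0.0510) and was called after either repeated quantile normalization (0.0359) or alignment of the array medians over all probe sets (0.0324). The 4 endothelial markers lay above the brightness threshold with changes between -0.02 and 0.03.

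**Figure D2:**
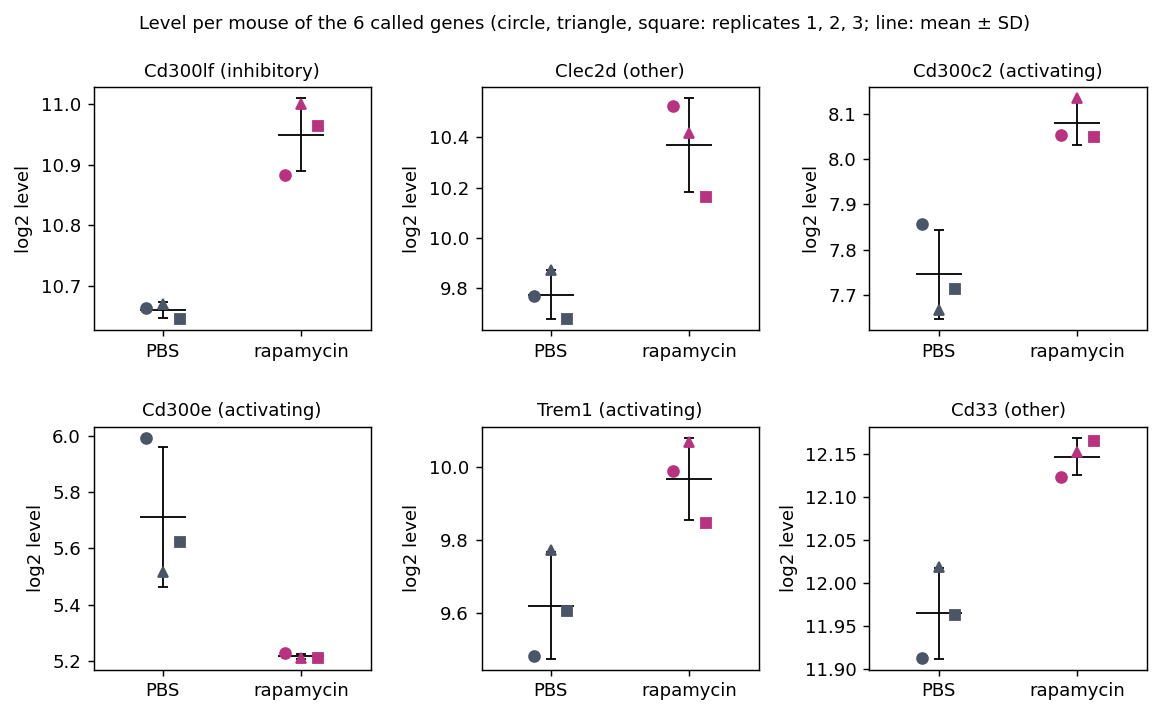
Log2 level of the 6 called genes in each mouse (symbols for replicates 1, 2 and 3) with mean ± SD for PBS and rapamycin; each panel has its own axis. In every panel the groups do not overlap, and Cd300e is the gene whose rapamycin arrays (5.21 to 5.23) lie below PBS.

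Clec2d showed the largest change of the called genes. It encodes the surface ligand of the inhibitory receptor Klrb1b of NK cells. It read 9.77, 9.87 and 9.68 with PBS and 10.53, 10.42 and 10.16 with rapamycin, so that all rapamycin arrays were higher and replicate 3 the least so. The rise was 0.59 ± 0.10 (SE), or 1.51-fold (limma adjusted p 0.0145). Left out 1 at a time, 5 of the arrays took the adjusted p to between 0.0529 and 0.0640 with a change of 0.52 or more, and leaving out rapamycin replicate 3 kept the call (0.0146). Its receptor Klrb1b, which is no member of the set and lies in the same gene cluster, read 6.11, 5.81 and 5.81 with PBS and 6.78, 6.53 and 6.49 with rapamycin. It rose by 0.69 ± 0.11 (limma adjusted p 0.0118) and kept its call in 3 of 6 fits with an array left out. Klrb1f, a related receptor from the same cluster, went the other way, from 9.22 ± 0.03 to 8.22 ± 0.19 (limma adjusted p 0.00448). Its ligand Clec2i was spread out with rapamycin (7.39, 7.12 and 7.71, against 7.49, 7.39 and 7.34 with PBS) and showed a change of 0.00042 ± 0.14 with no settled sign. The defining NK cell markers Ncr1, Klrb1c and Klre1 were under the brightness threshold. The summed NK marker level was 79.9 to 82.4 with PBS and 81.5 to 85.5 with rapamycin. Clec2h, also of this ligand family, and Clec2l changed by 0.14 ± 0.06 and -0.08 ± 0.06 and did not pass the test.

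Trem1, which amplifies inflammatory responses of neutrophils and monocytes through Tyrobp, read 9.48, 9.77 and 9.60 with PBS and 9.99, 10.07 and 9.85 with rapamycin. The groups did not overlap, though the highest PBS array came close to the lowest rapamycin array. The rise was 0.35 ± 0.09 (SE; limma adjusted p 0.0467). It was called in 1 of 6 fits with an array left out (without rapamycin replicate 3, 0.0495), and the others gave 0.0670 to 0.156. Its neighbours in the Trem cluster all had positive changes that did not pass the test. Trem3, a related activating receptor, read 10.13, 10.16 and 10.24 with PBS and 10.38, 10.45 and 10.25 with rapamycin, just apart. It changed by 0.18 ± 0.06, and Treml4, found on splenic macrophages and nonclassical monocytes, by 0.29 ± 0.17. Treml2 read 10.31, 10.44 and 10.48 with PBS and 10.52, 10.50 and 10.41 with rapamycin, which overlap. Trem2, the lipid receptor of tissue macrophages, changed by 0.06 ± 0.06 and the platelet receptor Treml1 by 0.02 ± 0.08. The sign of Treml1 turned under some settings (-0.00146 with array medians aligned over all probe sets). Of 8 mature neutrophil markers, a list chosen after values were seen, 2 rose (Il1r2 and Slpi) and 1 fell (Mxd1), or 37.5% called (all genes 11.3%). Their summed level was 28880 to 31240 with PBS and 28730 to 32390 with rapamycin.

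Cd33 is a Siglec whose signal in mouse is less settled than in human. It read 11.91, 12.02 and 11.96 with PBS and 12.12, 12.15 and 12.17 with rapamycin, close values that did not overlap. The rise of 0.18 ± 0.05 (SE; limma adjusted p 0.0472) was the smallest called. It was lost in each of the 6 fits that dropped an array (0.0824 to 0.115) and after repeated quantile normalization, where the change was 0.06 (adjusted p 0.477).

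The other Siglecs did not pass the test. Siglece, the main inhibitory Siglec of mouse neutrophils, read 10.03, 10.13 and 10.15 with PBS and 10.38, 10.60 and 10.16 with rapamycin, where the lowest rapamycin array barely cleared PBS. Its change was 0.28 ± 0.11 (limma adjusted p 0.139) and without rapamycin replicate 3 it was 0.39 (0.0416). Siglecg, the inhibitory Siglec of B cells, had the most negative change of the inhibitory class, -0.37 ± 0.15 (adjusted p 0.157 with limma). Its rapamycin values were 7.40, 7.44 and 6.84, so most of the difference lay in replicate 3, and without that array the change was -0.18. The summed B cell marker level was 53.2 to 59.3 with PBS and 54.7 to 59.1 with rapamycin. All 3 measured B cell markers lay under the brightness threshold, so this sum says little about B cells. Siglecf, a marker of eosinophils, changed by 0.03 ± 0.04 and Siglec15, an osteoclast receptor, by 0.07 ± 0.05. Siglec1, the sialoadhesin of splenic marginal zone macrophages, stood at 7.08 ± 0.18 with PBS and 6.81 ± 0.15 with rapamycin and the groups overlapped.

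Among the 8 Clec4 lectins, 7 of them from the dectin-2 cluster, limma called 0, with 4 at an unadjusted p under 0.05 (50%, all genes 28.2%). Several lay close to the threshold. Clec4n, which is dectin-2, the receptor of fungal mannans, had the largest change of all 52 genes. It read 8.73, 8.08 and 7.99 with PBS and 8.998, 9.23 and 8.79 with rapamycin. PBS replicate 1 stood well above the other PBS arrays and close to the lowest rapamycin array. The change was 0.74 ± 0.20 (SE; limma adjusted p 0.0578), and without PBS replicate 1 it was 0.97 (0.0304). Clec4a1 read 9.62, 9.35 and 9.19 with PBS and 9.86, 9.78 and 9.72 with rapamycin. Clec4a3 read 8.88, 8.66 and 8.60 with PBS and 9.33, 8.95 and 9.11 with rapamycin. These genes, next to each other at one end of the cluster, changed by 0.40 ± 0.11 and 0.41 ± 0.11 (limma adjusted p 0.0553 for both), with groups that did not overlap. Clec4e, which is Mincle, the receptor of mycobacterial glycolipids, changed by 0.24 ± 0.09, its partner Clec4d by 0.27 ± 0.16 and Clec4b2 by 0.19 ± 0.10. The inhibitory Clec4a2, in the middle of the cluster, read 8.95, 9.10 and 8.97 with PBS and 8.92, 8.97 and 9.07 with rapamycin. Its change of -0.02 ± 0.06 had no stable sign. The Kupffer cell lectin Clec4f, encoded elsewhere, changed by -0.09 ± 0.09. The Clec4a, Clec4b and Cd300 genes have close paralogues, so their probes may share signal.

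In the dectin-1 cluster, Clec9a, the dead-cell receptor of cross-presenting dendritic cells, read 4.72, 4.51 and 4.36 with PBS and 5.30, 5.17 and 4.75 with rapamycin. The groups were only just apart, and the PBS mean lay under the brightness threshold, which the gene passed through its rapamycin values. Its change was 0.54 ± 0.15 (limma adjusted p 0.0631), and without rapamycin replicate 3 it was 0.70 (0.0247). Xcr1, which marks the same dendritic cells, was under the threshold (4.32 ± 0.06 with PBS and 4.45 ± 0.04 with rapamycin), and 0 of 3 tested markers of conventional dendritic cells were called by limma (0 also at an unadjusted p under 0.05). Clec12a, an inhibitory receptor that senses uric acid crystals, read 11.83, 11.85 and 11.80 with PBS and 11.71, 11.75 and 11.70 with rapamycin. All rapamycin arrays were lower, with a change of -0.11 ± 0.04 (limma adjusted p 0.149), and the gene was called after repeated quantile normalization (change -0.21, 0.0273). Clec7a, which is dectin-1, the receptor of fungal glucans, read 10.97, 10.87 and 10.87 with PBS and 10.96, 11.02 and 10.67 with rapamycin, with no difference beyond the spread (-0.02 ± 0.09). The inhibitory Clec12b changed by 0.04 ± 0.05 and the platelet receptor Clec1b by 0.03 ± 0.08. Clec5a, which signals through Tyrobp and lies elsewhere, read 10.70, 10.79 and 10.77 with PBS and 10.83, 10.90 and 10.73 with rapamycin (0.07 ± 0.06).

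**Figure D3:**
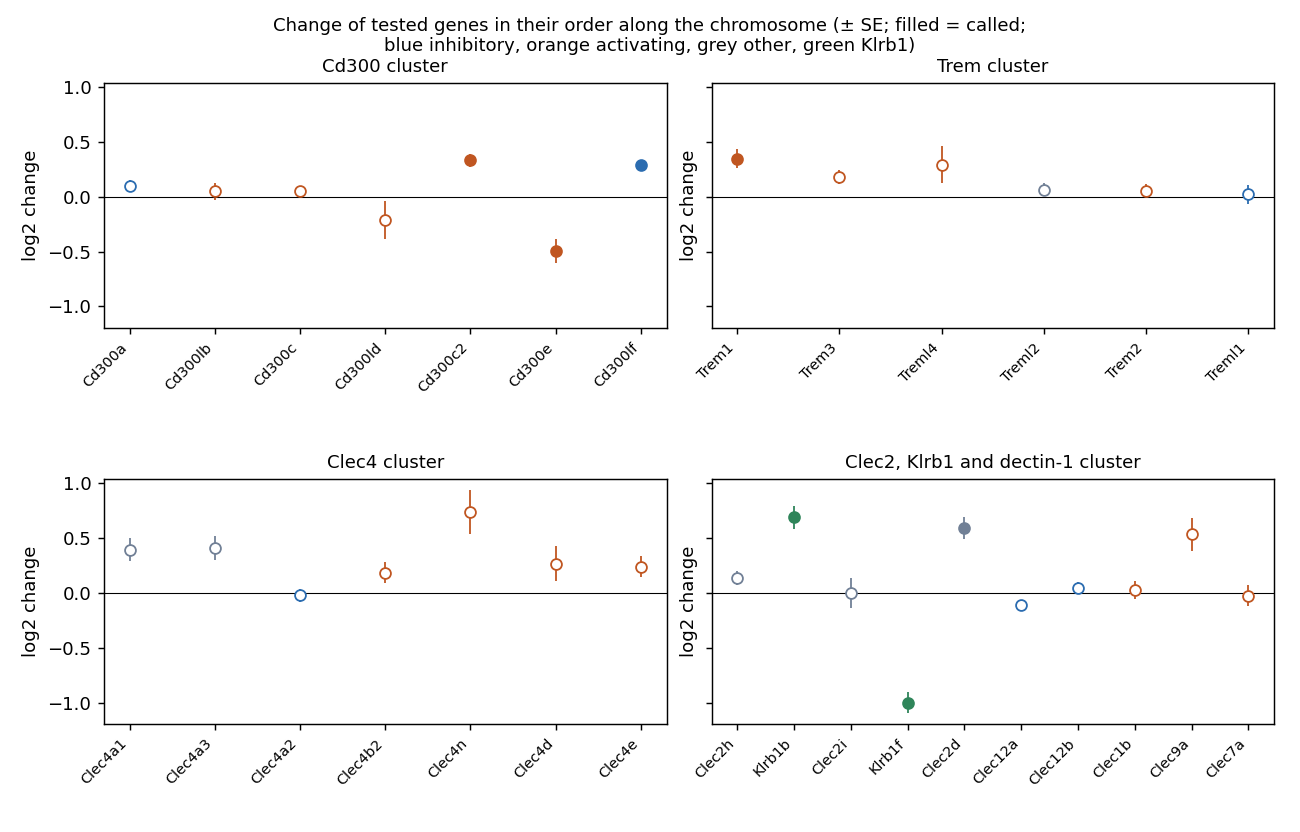
Log2 change (rapamycin minus PBS, bars ± SE) of tested genes of 4 clusters in the order in which RefSeq places them along the chromosome, filled where called; genes under the brightness threshold are left out. In the Cd300 panel the called genes lie on both sides of 0, in the Trem panel all 6 changes are above 0, and in the last panel Klrb1b and Clec2d lie above 0 and Klrb1f below.

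The inhibitory receptors of MHC class I and their relatives were bright, except Lilra5 (mean 5.31). Limma called 0 of these 5 Lilr and Pir genes (all genes 11.3%), and 1 had an unadjusted p under 0.05 (20%, all genes 28.2%). Pirb read 10.97, 10.99 and 10.85 with PBS and 11.23, 11.27 and 11.07 with rapamycin, without overlap (0.25 ± 0.07, limma adjusted p 0.0555). Lilrb4a read 12.39, 12.42 and 12.22 with PBS and 12.52, 12.46 and 12.38 with rapamycin. Its near-copy Lilr4b read 12.44, 12.44 and 12.23 and then 12.47, 12.46 and 12.39. In both, the arrays overlapped, and their changes were 0.11 ± 0.07 and 0.07 ± 0.07. Near-identical copies such as these, and the Pir genes, can share probe signal. The activating Lilra5 and Lilra6 changed by 0.15 ± 0.09 and -0.07 ± 0.14, the latter with a rapamycin range of 9.62 to 10.25.

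Pilra, the inhibitory partner of the Pilr pair, read 10.64, 10.58 and 10.34 with PBS and 10.98, 10.94 and 10.69 with rapamycin. Its groups did not overlap (0.35 ± 0.10, limma adjusted p 0.0741). The activating Pilrb1, its neighbour, read 10.80, 10.81 and 10.69 with PBS and 11.001, 11.04 and 10.72 with rapamycin, which overlap (0.15 ± 0.09). Sirpa read 11.08, 10.998 and 11.03 with PBS and 11.12, 11.10 and 11.08 with rapamycin, a change of 0.06 ± 0.04. That value was -0.06 after repeated quantile normalization, so Sirpa has no settled direction.

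The genes classed as other included lectins that take up or bind sugars and secreted proteins. The galactose lectin Clec10a varied most between rapamycin arrays, from 5.42 to 6.19, with a change of -0.01 ± 0.18. The secreted Clec3a, Clec3b, Clec11a and Clec18a changed by between -0.01 and 0.22, and Clec16a, an endosomal protein that shares only the name, by -0.08 ± 0.08. None of these 6 passed the test.

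Set side by side, both classes leaned to positive changes. Of 13 inhibitory genes 1 rose (Cd300lf), 0 fell and 12 were not called (7.69% called, all genes 11.3%), and 6 (46.2%) had an unadjusted p under 0.05, against 28.2% of all genes. Of 21 activating genes 2 rose (Cd300c2 and Trem1), Cd300e fell and 18 were not called (14.3% called), and 7 (33.3%) had an unadjusted p under 0.05. The classes were assigned by hand, and some genes, among them Cd33, Siglecf, Siglec15, Treml1 and Lilr4b, could be placed otherwise. With Cd33 counted as inhibitory, 2 of 14 inhibitory genes were called (14.3%), the same share as of the activating genes. The change was positive for 10 of 13 inhibitory and 17 of 21 activating genes. The 17 include Clec9a, which passed the brightness threshold through its rapamycin values. The median was 0.06 for the inhibitory and 0.15 for the activating class, and -0.02 for all genes tested. The inhibitory median was 0.02 after repeated quantile normalization and 0.09 with medians aligned over the genes tested. No test of the difference between the classes was made. The mean deviation of the inhibitory genes from their own means was -0.02, -0.03 and -0.07 in the PBS arrays and 0.05, 0.10 and -0.04 in the rapamycin arrays. For the activating genes it was -0.01, -0.09 and -0.11 with PBS and 0.07, 0.21 and -0.07 with rapamycin. In both classes rapamycin replicate 3 fell within the PBS range, so the groups overlapped. The genes classed as other gave -0.04, -0.03 and -0.06 with PBS and 0.09, 0.0073 and 0.02 with rapamycin, where all rapamycin arrays, replicate 3 included, lay above PBS.

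Over the members counted 1 by 1, rapamycin replicate 3 was the lowest of the rapamycin arrays for 32 of the 52 genes (61.5%), against 33.1% of all genes, and rapamycin replicate 2 was the highest for 26 (50%, all genes 34.3%). The neutrophil marker Ly6g was also lowest there (11.66, against 12.05 and 12.25 in the other rapamycin arrays and 12.19 to 12.36 with PBS). The part of this in the receptors' values was not tested.

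**Figure D4:**
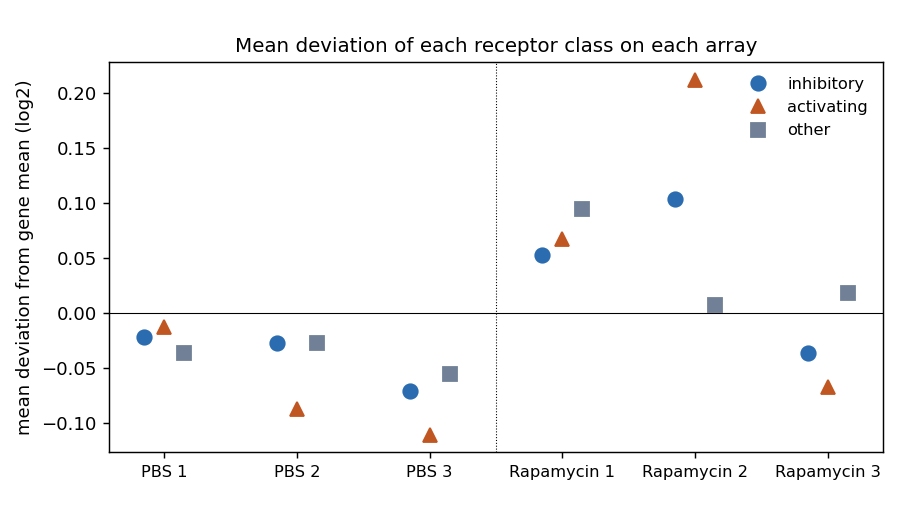
Mean over genes of the deviation of each value from the gene's mean over the 6 arrays (log2), by class and array. Rapamycin replicates 1 and 2 lie above the PBS arrays in the inhibitory and activating classes, and rapamycin replicate 3 (-0.04 and -0.07) lies among them; in the class of other genes all 3 rapamycin arrays (0.0073 to 0.09) lie above PBS.

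Pairs that differ in sign within a cluster were compared within each array, as a description, since they were chosen after values were seen. Pilra over Pilrb1, relative to the PBS mean, was 0.09, 0.01 and -0.10 in the PBS arrays and 0.23, 0.15 and 0.22 in the rapamycin arrays, so the inhibitory partner gained by 0.20 on the log2 scale in mean. Pirb over Lilra6 was 0.06, 0.05 and -0.11 with PBS and 0.34, 0.11 and 0.54 with rapamycin. Clec4a2 over Clec4n went the other way, with -0.52, 0.28 and 0.24 in PBS and -0.82, -0.997 and -0.46 in rapamycin arrays, the last overlapping PBS replicate 1. These pairs gave no common direction. Clec4n had the largest change of all the receptors, so the direction of the last pair followed from its choice. Pairs picked in this way cannot show how paired receptors move in general.

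Few genes of the machinery through which these receptors signal were called. Of 27 tested adaptors, kinases and other signal carriers, phosphatases and ligands, 1 rose, 0 fell and 26 were not called (3.7% called, all genes 11.3%), 6 had an unadjusted p under 0.05 (22.2%, all genes 28.2%), and the list had a median change of 0.00076. The adaptor Tyrobp read 11.54, 11.60 and 11.56 with PBS and 11.74, 11.67 and 11.59 with rapamycin, which overlap. Fcer1g changed by 0.07 ± 0.05 and Ptpn6 by -0.07 ± 0.05 (SE). After repeated quantile normalization the change of Tyrobp was -0.0017 and that of Fcer1g -0.011. Btk, a kinase downstream of several activating receptors, rose by 0.22 ± 0.06 (limma adjusted p 0.0495) and was not called in any of the 6 fits that dropped an array (0.0619 to 0.151). Among 19 tested receptors of similar build outside the symbol rule, 2 rose and 2 fell (21.1% called, all genes 11.3%). These were Klrb1b and Klrb1f above, Klra2, an inhibitory Ly49 receptor of myeloid cells, which rose by 0.72 ± 0.10 (limma adjusted p 0.0103), and the mannose receptor Mrc1, which changed by -1.04 ± 0.14 (0.00908). With an array left out Klrb1f was called in 6 of 6 fits, Klra2 in 5 and Mrc1 in 4.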

How the data were processed

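RNA of CD11b-sorted spleen cells from 6 mice was measured on 6 Affymetrix arrays. The authors deposited log2 values, computed by RMA (Affymetrix Expression Console) per the submitters' processing notes; their versions are not stated there. RMA brings the arrays towards a common distribution, which can hide a shift of all genes. The deposited arrays still differed slightly, with medians of 5.419 to 5.455. Repeated quantile normalization lowered the changes of some bright receptors (Cd33 to 0.06 and Lilrb4a from 0.11 to 0.01). Probe sets with 1 symbol in the platform annotation were named, the brightest per gene was kept, and genes whose mean fell below the 30th percentile (4.72) were dropped, which left 13965. Rapamycin was compared with PBS with limma 3.58.1 in R 4.3.3 (lmFit, eBayes), Benjamini-Hochberg adjusted over all these genes and called at an adjusted p under 0.05. The script was tested on simulated data. Every member is named, with per-array values for those called and the 10 brightest others; further members given per array were chosen after their values were seen. Members and lists were chosen with earlier results of these data known, and the monocyte and neutrophil lists and the pairs after values were seen. The labels give no batch. The 3 arrays a group limit the precision.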

Additional observations from a re-analysis of the deposited data

How the results depend on the processing

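Of 11 other settings run on all 6 arrays, 10 were planned and 1, aligning medians over the genes tested, was chosen after seeing the data. Receptors called higher numbered 5 as reported, and 9 with a 50th percentile filter, 8 with array weights, 11 with tested-gene medians aligned, 3 without a filter and 9 with trended, robust variance. Those lower numbered 1 as reported, 2 with array medians aligned, array weights or every probe set kept, 3 after repeated quantile normalization and 0 without a filter. All calls then came to 10, 10, 12, 3 and 10 under the first 5 of these settings. Of all genes, 17.9%, 13.2%, 11.3%, 6.32% and 12.3% were called under the same 5. It was 14% after repeated quantile normalization and 13.5% with array medians aligned. The 50th percentile filter left 41 receptors, without Cd300e, and its lower call was Cd300lg. Clec9a, which passed the brightness threshold through its rapamycin values, was among those higher with array weights and with tested-gene medians aligned. Inhibitory calls were 2 with the 50th percentile filter, array weights, repeated quantile normalization or trended variance, and 3 with tested-gene medians aligned. Activating calls were 5 with tested-gene medians aligned, Clec9a among them, and 1 without a filter. Signalling calls were 2 with the 50th percentile filter, array weights, tested-gene medians aligned or trended variance, 3 after repeated quantile normalization, and 0 with array medians aligned or no filter. The inhibitory median was 0.016 after repeated quantile normalization and 0.094 with tested-gene medians aligned. Unmoderated variances gave 86 calls over all genes and 0 receptors or signalling genes (12 receptors at an unadjusted p under 0.05). The cause was not tested.

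With the replicate number as a block, 10 receptors were called higher and 11 in all, 3 inhibitory and 5 activating, with 2 signalling genes. Of all genes 12.1% were then called. Clec9a, which passed the brightness threshold through its rapamycin values, is among the 10 and among the 5. Same-numbered arrays did not deviate together throughout (correlations 0.26, 0.01 and 0.046), and not every array correlated best with its own number, so the numbers were not taken to pair the mice.

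Leaving out 1 array at a time, all genes called numbered 113 to 1336 (0.809% to 9.57%). Receptors called numbered 0 to 8, with 0 to 8 higher (the 8 including Clec9a), 0 to 1 lower, 0 to 4 inhibitory and 0 to 3 activating. Signalling genes called numbered 0 to 2. The inhibitory median ranged from 0.042 to 0.085 and the activating one from 0.083 to 0.16.

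Signs turned for the small changes that follow. Leaving out 1 array at a time gave changes from -0.14 to 0.0046 for Clec16a, -0.0059 to 0.076 for Clec12b, -0.028 to 0.13 for Cd300lb, -0.23 to 0.090 for Lilra6, -0.011 to 0.040 for Clec11a and -0.065 to 0.024 for Clec4a2. They ran from -0.058 to 0.072 for Clec1b, -0.055 to 0.10 for Treml1, -0.046 to 0.017 for Clec18a, -0.093 to 0.084 for Clec7a, -0.23 to 0.15 for Clec10a and -0.15 to 0.14 for Clec2i. With array medians aligned they were -0.00049 for Clec11a, -0.0015 for Treml1 and -0.023 for Clec2i. With array weights they were 0.0031 for Clec7a, 0.033 for Clec10a and -0.019 for Clec2i. With tested-gene medians aligned they were 0.0093 for Clec4a2, 0.018 for Clec18a, 0.0080 for Clec7a and 0.021 for Clec10a. After repeated quantile normalization they were -0.056 for Sirpa, -0.035 for Lilr4b, -0.0045 for Clec11a, -0.0025 for Clec2i, -0.0017 for Tyrobp and -0.011 for Fcer1g.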
